A study of Mus musculus with 8 samples.

Results

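Trk receptors and LAR-type receptor phosphatases are cell surface proteins of developing synapses, and 7 of their genes were examined among the 56576 genes of the table. They were taken by gene symbol: Ntf3, which encodes the ligand neurotrophin-3 (NT-3), the receptor genes Ntrk2 (TrkB), Ntrk3 (TrkC) and Ngfr (p75), and the phosphatase genes Ptprs (PTPσ), Ptprd (PTPδ) and Ptprf (LAR). These symbols were chosen with earlier results of these data known. The study asked which ribosome-bound RNAs at interneuron synapses depend on ErbB4, a neuregulin receptor. The 4 control libraries came from Lhx6-Cre;ErbB4+/+;Rpl22HA/HA mice and the 4 mutant libraries from Lhx6-Cre;ErbB4F/F;Rpl22HA/HA mice, all at postnatal day 15. Every mouse therefore carried Lhx6-Cre, which acts in interneurons of the medial ganglionic eminence (MGE) and preoptic area lineages, and the Rpl22HA allele that Cre switches to a tagged ribosomal protein. Cortical synaptosomes, which are pinched-off synaptic endings, were prepared and RNA was pulled down with the tagged ribosomes. Lhx6-Cre acts in several interneuron classes, so parvalbumin-expressing (PV+) and somatostatin-expressing (SST+) cells are pooled in each library.

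TrkB and TrkC are receptor tyrosine kinases that dimerize when they bind a neurotrophin, BDNF for TrkB and NT-3 for TrkC, and signal through adaptor proteins to the Ras-MAPK, PI3K-Akt and phospholipase C routes, while p75 binds all neurotrophins. TrkC also works as a synaptic adhesion molecule: its extracellular part binds PTPσ on the facing membrane. PTPσ, PTPδ and LAR are mostly presynaptic, where they meet postsynaptic partners such as Slitrks outside the cell and liprin-α inside it.

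Because these families are paralogues, the coding sequences were compared first, to show how much of a read could match more than 1 member. The longest stretch shared by the longest coding sequences of Ntrk2 and Ntrk3 was 23 bases, and lies in the part that encodes the kinase domain. Among the LAR-type genes the longest was 27 bases, between Ptprs and Ptprf, followed by 26 bases between Ptprd and Ptprf and 21 bases between Ptprs and Ptprd. No window of 50 bases was identical between any of the 4 pairs. The shared stretches of the first pair and of Ptprs and Ptprf are shown in capitals, with 15 bases of each gene on either side (GENCODE M21 transcripts, coding strand, 5′ to 3′).
Ntrk2: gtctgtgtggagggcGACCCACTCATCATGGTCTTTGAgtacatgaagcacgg
Ntrk3: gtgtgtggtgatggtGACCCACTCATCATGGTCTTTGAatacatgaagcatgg
Ptprs: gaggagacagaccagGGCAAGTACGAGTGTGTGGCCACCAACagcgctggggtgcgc
Ptprf: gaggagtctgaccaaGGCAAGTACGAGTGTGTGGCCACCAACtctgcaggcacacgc
In Ntrk2 the capitals are coding bases 1828 to 1850, and in Ntrk3 bases 1831 to 1853. They are coding bases 607 to 633 in both Ptprs and Ptprf. The length of the reads was not given in the sources used here, so the share of reads that could fall wholly in such a stretch was not computed.

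The 7 rows cover very unequal parts of the genome (mm10). Ptprd spans 2270.6 kb of chromosome 4 (75941237 to 78211854), and Ptprf lies on the same chromosome (118208213 to 118291397). Ntrk3 takes up 385.9 kb of chromosome 7 (78192114 to 78577980) and Ntrk2 takes up 327.4 kb of chromosome 13 (58806568 to 59133970). Ptprs lies on chromosome 17 (56412426 to 56476480), Ntf3 on chromosome 6 (126101398 to 126166744) and Ngfr on chromosome 11 (95568818 to 95587699). For Ntrk3, GENCODE M21 gives a longer gene, from 78175959 to 78738012. In that annotation the complete coding sequences of Ntrk3 range from 612 to 864 codons and those of Ntrk2 from 466 to 821 codons, the shortest being truncated receptors without a full kinase. The authors counted reads only on regions that all transcripts of a gene share, so 1 value per gene stands for full-length and truncated receptors together. The only exon shared with another gene was a 7-base antisense overlap of Ptprd with B230208B08Rik.

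Libraries held between 51010687 and 80226984 reads on genes, and limma was run on the 31171 genes whose normalized counts averaged 10 or more in either genotype. A gene was called lower or higher when its unadjusted p was at most 0.05 and its fold change at least 1.5, the thresholds of the study. Among all genes tested, 3.17% were called lower in mutants and 3.98% higher (2.06% and 2.79% without control replicate 1), and the median log2 fold change was 0.055. Erbb4 itself had 1640, 5377, 4306 and 3034 normalized counts in control replicates 1, 3, 4 and 5, against 1711, 1648, 1233 and 1048 in mutant replicates 2, 3, 4 and 5. The library labelled control replicate 1 was thus at the level of the mutants, and values that turned on it are also given without it.

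All 7 genes were tested. Only Ntrk3 was called lower in mutants (1 of 7, where 3.17% of all genes were), and 0 of 7 were called higher. None of the 7 passed a limma p of 0.05 adjusted by the Benjamini-Hochberg method, which 0.0449% of all genes did. Their adjusted p-values ran from 0.58 for Ntrk3 to 0.836 for Ptprs, and every other gene called in the lists that follow had an adjusted p of 0.58. Control and mutant libraries overlapped for each of the 7 genes. Without control replicate 1 the number called lower was 0 of 7. In bulk libraries such as these, fewer cells of a type and less RNA per cell cannot be told apart.

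**Figure D1:**
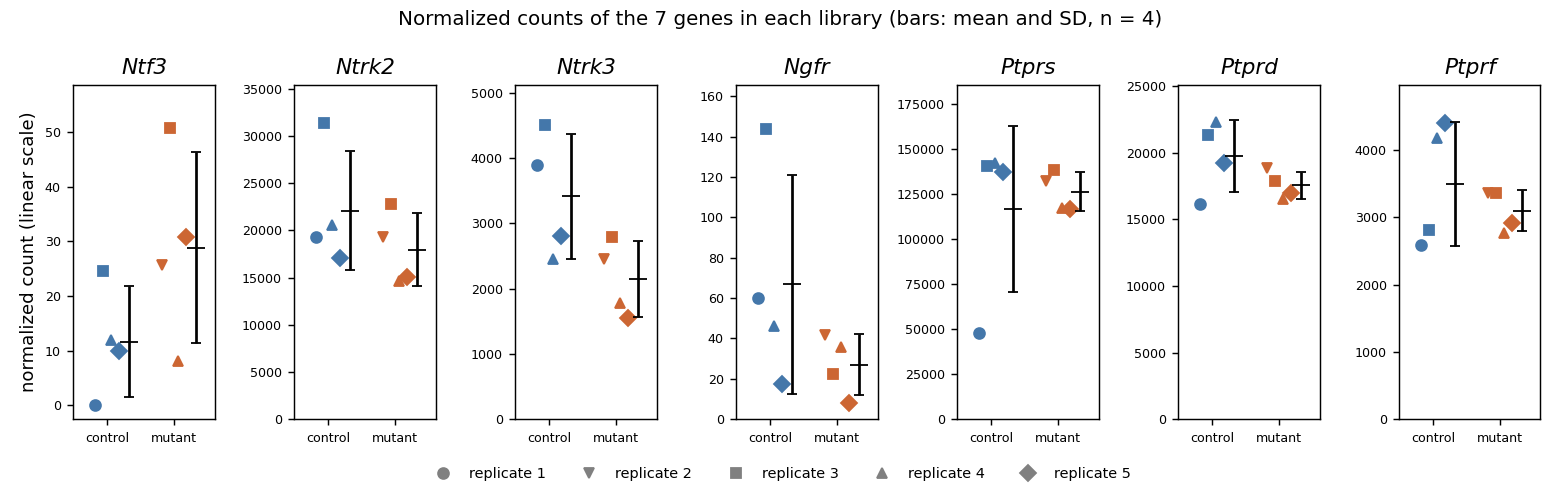
Normalized counts (linear axes, each starting at or below 0) of the 7 genes in 4 control libraries (blue) and 4 mutant libraries (orange), with a marker shape for each replicate number and black bars for the mean and SD. The mutants of Ntrk3 lie between 1549 and 2800 and its controls between 2448 and 4509, and for Ptprs control replicate 1 lies alone at 47913.

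Ntf3, the gene of the TrkC ligand, was near the detection limit. It had 0, 24.6, 12.0 and 9.89 normalized counts in control replicates 1, 3, 4 and 5, and 25.6, 50.8, 8.20 and 30.8 in mutant replicates 2, 3, 4 and 5. These stand for 0 to 24 reads per control library and 8 to 55 reads per mutant library. Mutant replicates 2, 3 and 5 were above all controls, and mutant replicate 4 was below every control but replicate 1. The 0 reads of control replicate 1 have an exact 95% Poisson interval that ends at 3.69 reads. The fixed floor used for all libraries was 3 reads, or 0.0568 RPM in this one. The 8 reads of mutant replicate 4 have an exact 95% Poisson interval of 3.45 to 15.8 reads. A log2 fold change of 1.70 (SE 1.15, 95% interval -0.84 to 4.24, unadjusted p = 0.169) was found, and 0.71 without control replicate 1, so that 1 library moved the value by more than any other. With a pseudocount of 10 in place of 1 it was 0.85, and with 0.1 it was 2.53. The exact permutation p was 0.2 (two-sided).

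Ntrk2 was by far the more abundant Trk gene. Its values were 19332, 31328, 20620 and 17081 normalized counts in control replicates 1, 3, 4 and 5, and 19344, 22783, 14653 and 15079 in mutant replicates 2, 3, 4 and 5. Control replicate 3 was the highest library, and mutant replicates 2 and 3 lay among the controls. Controls averaged 22090 ± 6330 (SD, n = 4) and mutants 17965 ± 3848 (SD, n = 4). The log2 fold change of -0.28 (SE 0.25, 95% interval -0.83 to 0.26) gave a limma p of 0.275 and an exact permutation p of 0.314 (two-sided).

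Ntrk3 had 3899, 4509, 2448 and 2801 normalized counts in control replicates 1, 3, 4 and 5. In mutant replicates 2, 3, 4 and 5 it had 2460, 2800, 1787 and 1549. Mutant replicates 4 and 5 were below every control, while mutant replicates 2 and 3 were at the level of control replicates 4 and 5. Controls averaged 3414 ± 956 (SD, n = 4) and mutants 2149 ± 581 (SD, n = 4), and the fitted values of the mutants were 1.59-fold lower. This is a log2 fold change of -0.67 (SE 0.26, 95% interval -1.25 to -0.08), with a limma p of 0.0285. The exact permutation test of the mean log2 values over the 70 ways to split 8 libraries gave p = 0.114 (two-sided), where 0.0286 is the smallest p possible. DESeq2 and edgeR on the recovered reads gave unadjusted p-values of 0.0257 and 0.036. Each library held between 1561 and 4393 reads of Ntrk3, so counting error was small beside the spread between libraries. Ntrk3 was among the genes the study picked from these libraries, so its direction here is not independent evidence.

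The call of Ntrk3 rested on several libraries. It was lost without control replicate 1 (log2 fold change -0.59, unadjusted p = 0.0648), without control replicate 3 (-0.52, unadjusted p = 0.0843), without mutant replicate 4 (-0.59, unadjusted p = 0.0733) and without mutant replicate 5 (-0.52, unadjusted p = 0.089). In the other 4 fits with a library left out it was kept, with log2 fold changes of -0.74 to -0.81. The direction was the same in all 8 of these fits.

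**Figure D2:**
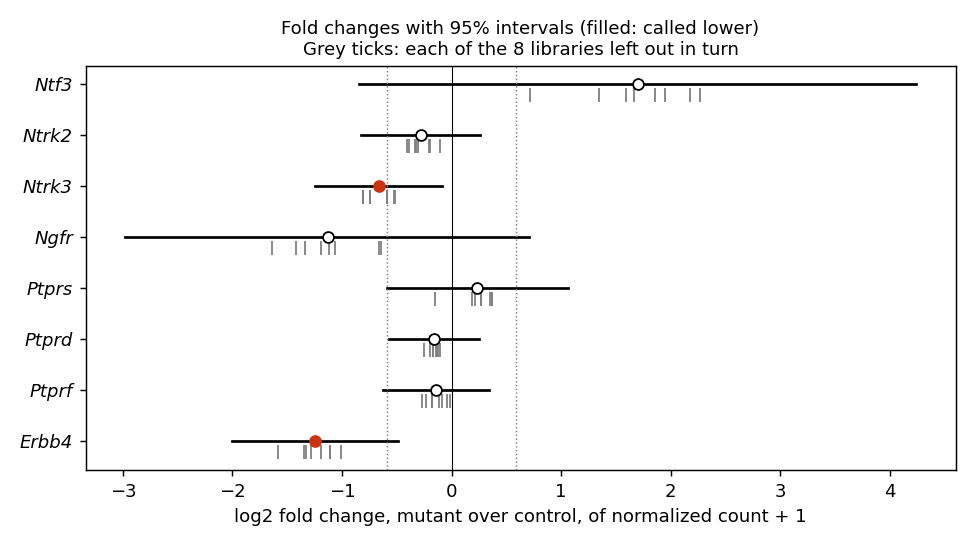
Log2 fold changes of mutants over controls with 95% limma intervals for the 7 genes and Erbb4, dotted lines at a 1.5-fold change, and grey ticks for the value with each of the 8 libraries left out. The interval of Ntrk3 (-1.25 to -0.08) lies below 0, and 1 of the ticks of Ptprs lies on the other side of 0 (-0.15).

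Some markers of the interneurons whose ribosomes were tagged were called lower, as Ntrk3 was. Of 10 PV+ markers, 5 were called lower (Pvalb, Syt2, Kcnc1, Cplx1 and Hapln4, median log2 fold change of the list -1.08), and of 11 MGE markers tested, 2 were (Gad1 and Gad2, median -0.69). Of 9 SST+ markers 1 was called lower (Chodl, median -1.32), and of 9 markers of interneurons from the caudal ganglionic eminence (CGE) 0 were (median -0.60, and -0.33 without control replicate 1). Nek7 of the PV+ list went the other way, with a log2 fold change of 0.54 (unadjusted p = 0.0253, short of a 1.5-fold change) and all mutants above all controls, and Nos1 of the SST+ list had 0.10 (unadjusted p = 0.893). Both were singled out after their values were seen. The summed normalized counts of the PV+ list ran from 38034 to 170187 in controls and from 22031 to 60081 in mutants. Those of the MGE list ran from 32880 to 95601 and from 18462 to 48589. Lhx6, the gene whose regulatory sequences drive Cre, had a log2 fold change of -0.69 (unadjusted p = 0.0548). No marker of these lists was at 0 in every library. Without control replicate 1 in the fit, 2 of the PV+ markers and 1 of the MGE markers were called lower. The part of these markers in the level of Ntrk3 was not tested.

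**Figure D3:**
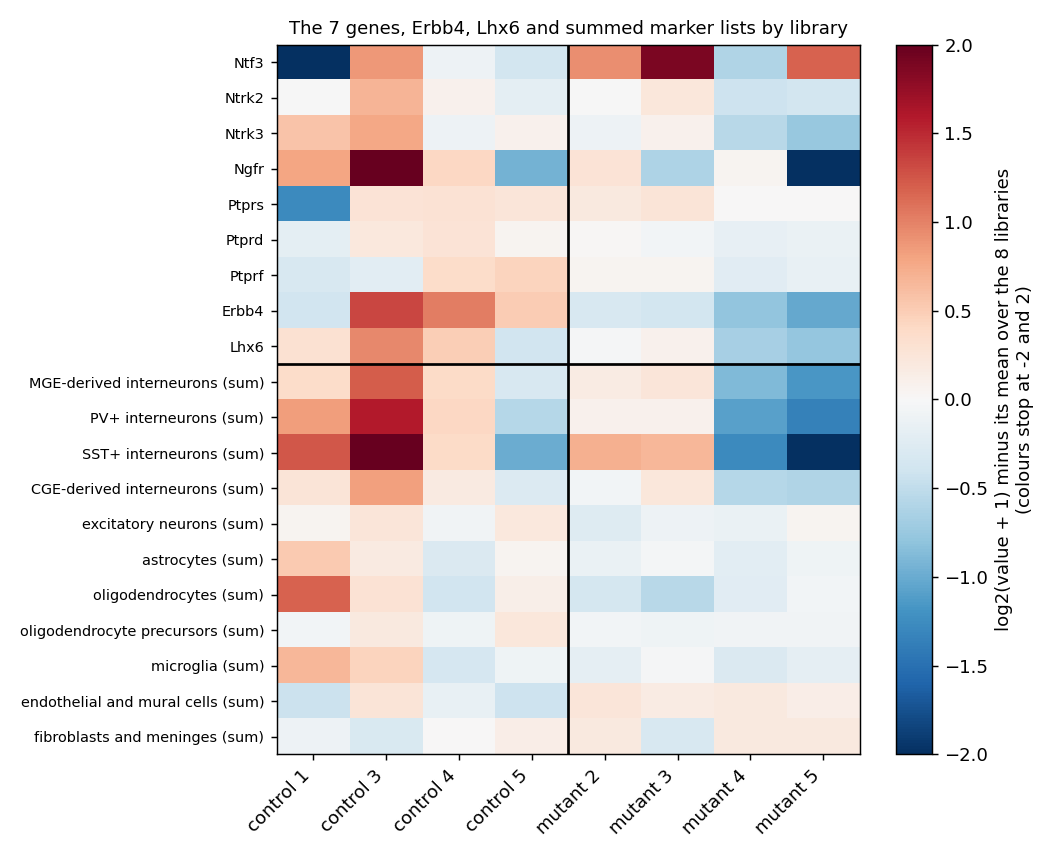
Colour map of the 7 genes, Erbb4, Lhx6 and the summed marker lists (rows) in the 8 libraries (columns), as log2(normalized count + 1) minus the mean of its row. For Ntrk3 mutant replicates 4 and 5 are lowest (-0.56 and -0.76), and for the PV+ list they are lowest too (-1.09 and -1.36). These libraries are also lowest for the MGE (-0.88 and -1.16), SST+ (-1.28 and -2.75) and CGE (-0.57 and -0.60) lists. The same holds for Ntrk2, Lhx6 and Erbb4. The oligodendrocyte list is highest in control replicate 1.

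The part of the reads on both Trk genes that fell on Ntrk3 needs no size factor. This share was 16.8%, 12.6%, 10.6% and 14.1% in control replicates 1, 3, 4 and 5, and 11.3%, 10.9%, 10.9% and 9.32% in mutant replicates 2, 3, 4 and 5. Control replicate 4 lay inside the range of the mutants, and the other controls above it. Controls averaged 13.5% ± 2.6 (SD, n = 4) and mutants 10.6% ± 0.88 (SD, n = 4), with no test made, and the 3 controls without replicate 1 averaged 12.4% ± 1.74 (SD, n = 3).

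Ngfr, which encodes the p75 receptor, was scarce. It had 60.0, 144, 46.0 and 17.3 normalized counts in control replicates 1, 3, 4 and 5, and 41.9, 22.2, 35.9 and 7.94 in mutant replicates 2, 3, 4 and 5. These came from 14 to 140 reads per control library and 8 to 49 reads per mutant library. Control replicate 3 was the highest, and control replicate 5 was below all mutants but replicate 5. Its log2 fold change was -1.13 (SE 0.84, 95% interval -2.98 to 0.71, unadjusted p = 0.202), with an exact permutation p of 0.2. Without control replicate 3 the log2 fold change was -0.65, and without mutant replicate 5 it was -0.66.

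Ptprs was the most abundant of the LAR-type genes. It had 47913, 140654, 142349 and 137198 normalized counts in control replicates 1, 3, 4 and 5, and 132660, 138795, 117486 and 116981 in mutant replicates 2, 3, 4 and 5. Control replicate 1 was far below all other libraries, and the other 3 controls were close together. The mean of the controls was 117028 ± 46126 (SD, n = 4), and 140067 ± 2625 (SD, n = 3) without that library, against 126480 ± 10969 (SD, n = 4) in mutants. For the genotypes this gave a log2 fold change of 0.24 (SE 0.38, 95% interval -0.59 to 1.06, unadjusted p = 0.543), and -0.15 (unadjusted p = 0.508) without control replicate 1. By exact permutation p was 0.971. The sign of the value for Ptprs thus turned on 1 library. It was also below 0 with library weights (-0.10), where control replicate 1 had the lowest weight (0.286), and with a replicate block (-0.18). That block compares only replicates 3, 4 and 5. Both settings thus discount or leave out the same library and add no separate evidence on the sign.

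Ptprd had a coefficient of variation of 13.8% in controls and 5.84% in mutants, the lowest of the 7 genes in each. In controls it was 7.55% without control replicate 1, where that of Ptprs was lower, at 1.87%. It had 16163, 21352, 22298 and 19209 normalized counts in control replicates 1, 3, 4 and 5, and 18849, 17835, 16540 and 16948 in mutant replicates 2, 3, 4 and 5. All mutants were below control replicates 3, 4 and 5 and above control replicate 1. The log2 fold change of -0.16 (SE 0.19, 95% interval -0.57 to 0.25) had a limma p of 0.401 and an exact permutation p of 0.229. Without control replicate 1 it was -0.26 (unadjusted p = 0.158).

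Ptprf, the gene of LAR itself, had 2585, 2811, 4180 and 4397 normalized counts in control replicates 1, 3, 4 and 5. In mutant replicates 2, 3, 4 and 5 it had 3354, 3360, 2759 and 2911. The controls fell on both sides of the mutants. A log2 fold change of -0.14 resulted (SE 0.22, 95% interval -0.62 to 0.34, unadjusted p = 0.535), with an exact permutation p of 0.514. Without control replicate 5 it was -0.02, and without control replicate 1 it was -0.27.

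**Figure D4:**
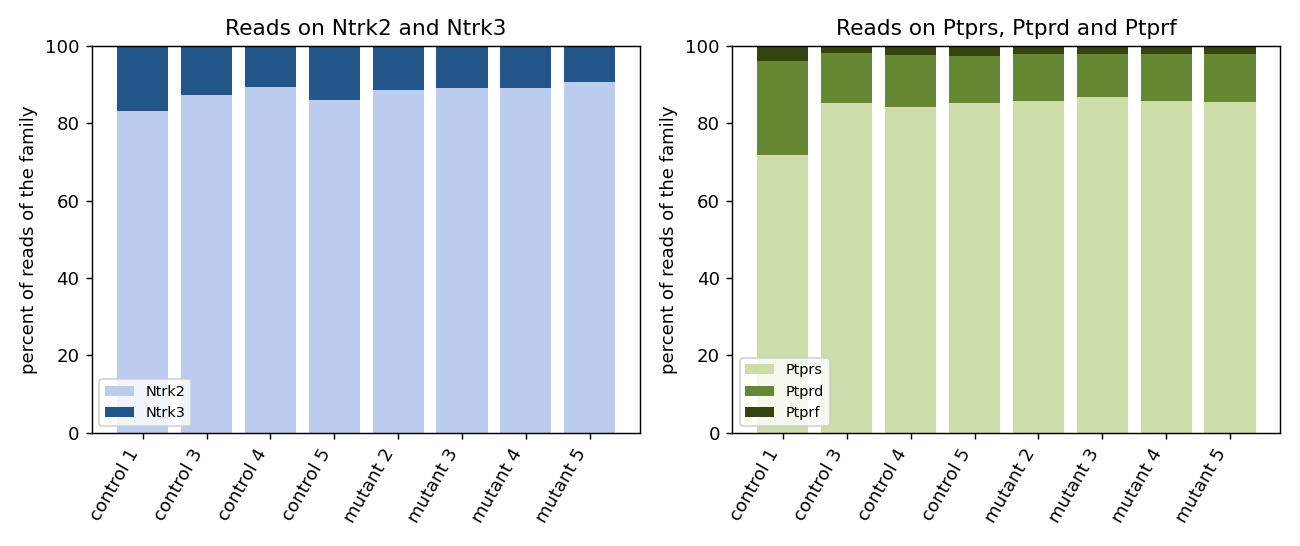
Percent of reads in each of the 8 libraries that fell on Ntrk2 or Ntrk3 (left, of the reads on both) and on Ptprs, Ptprd or Ptprf (right, of the reads on the 3 genes). Ptprs holds 71.9% in control replicate 1 and between 84.3% and 86.8% in the other libraries.

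Among the reads on the 3 LAR-type genes, Ptprs took 85.9% ± 0.56 (SD, n = 4) in the mutants and 81.7% ± 6.58 (SD, n = 4) in the controls. Without control replicate 1 the controls came to 85.0% ± 0.59 (SD, n = 3). Ptprd took 12.7% ± 0.67 in those 3 controls and 11.9% ± 0.55 (SD, n = 4) in mutants, and Ptprf took 2.31% ± 0.54 and 2.10% ± 0.06. Outside control replicate 1, the balance of the 3 phosphatase genes thus lay within a narrow band.

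Compared per length, as RPKM (reads per kilobase of coding sequence, scaled to the reads on genes of each library), levels in controls ran from Ptprs (292 ± 123, SD, n = 4) through Ntrk2 (125 ± 21.2), Ptprd (49.0 ± 8.49), Ntrk3 (18.3 ± 3.32) and Ptprf (8.89 ± 3.21) to Ngfr (0.692 ± 0.484) and Ntf3 (0.196 ± 0.151). In mutants the same order held for the first 5 genes, with 355 ± 17.6 for Ptprs, 117 ± 20.5 for Ntrk2, 49.2 ± 2.22 for Ptprd, 13.2 ± 3.03 for Ntrk3 and 8.73 ± 0.617 for Ptprf. Ntf3 (0.567 ± 0.332) and Ngfr (0.335 ± 0.185) changed places there, and their libraries overlapped in both genotypes. In controls Ptprs and Ntrk2 overlapped through control replicate 1 (116, against 109 to 155 for Ntrk2), while the libraries of Ntrk2, Ptprd, Ntrk3 and Ptprf did not overlap with those of their neighbours. With the length of the whole transcript in place of the coding length, Ntrk2 (30.7 to 43.5) and Ptprd (22.7 to 33.8) overlapped in controls. With the length of all exons in place of the coding length, Ntrk3 (1.58) came below Ptprf (5.54) in controls. The length of the regions on which reads were counted was not given in the sources used here.

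For each member, the 3 genes with the most similar pattern over the 8 libraries were listed by Pearson r of log2(normalized count + 1), among 18120 genes with a mean of at least 100 in both genotypes. Those of Ntrk3 were Oxa1l (r = 0.985), Slc35b2 (0.985) and H2bu2 (0.984), and all 3 were called lower themselves. Those of Ntrk2 were Lrp12 (0.996), Aarsd1 (0.994) and Get1 (0.991). Those of Ngfr were Tafa5 (0.977), Cbx3 (0.976) and Tmem230 (0.970). For Ptprs they were a gene with no symbol (0.996), Dclk1 (0.995) and Kntc1 (0.995), and for Ptprd they were Trpm2 (0.951), Timmdc1 (0.947) and Slc4a8 (0.944). For Ntf3 they were Emp2 (0.973) and 2 genes with no symbol, and for Ptprf they were Fbxl16 (0.975) and 2 genes with no symbol. Among the members, r was highest between Ntf3 and Ptprs (0.87), which share their lowest library, control replicate 1, and next between Ntrk2 and Ntrk3 (0.81). All of these are descriptions over 8 points that share library and depth.

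Bdnf, the ligand of TrkB, had a log2 fold change of -0.39 (unadjusted p = 0.266). Ntf5, the gene of neurotrophin-4, was too low to be tested.

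Among 35 Trk adaptors and downstream kinases, all of them tested, 3 were called higher and 0 lower, and the median log2 fold change was 0.29 (0.19 without control replicate 1). The number called higher ran from 0 to 9 over the fits with a library left out. It was 9 without control replicate 4 and 6 without control replicate 5, where 5.75% of all genes were called higher in each. Without control replicate 1, mutant replicate 4 or mutant replicate 5 it was 0, where 2.79%, 1.98% and 2.29% of all genes were. The 3 were Frs2 (log2 fold change 0.82, unadjusted p = 0.0472) and Gab1 (0.81, unadjusted p = 0.0218), which are docking proteins, and Pik3ca (0.70, unadjusted p = 0.0291), a catalytic subunit of PI3K. All 4 mutants of Frs2 were above all controls, with 3035 to 3440 against 732 to 2707 normalized counts, and control replicate 1 was the lowest by far. None of the 3 was called without control replicate 1, where Frs2 had a log2 fold change of 0.38, Gab1 of 0.52 and Pik3ca of 0.59. Gab1 and Pik3ca were also not called without mutant replicate 4 or 5, nor Frs2 without any 1 of the 4 mutants, nor Pik3ca without control replicate 3. Over all these fits the log2 fold changes ran from 0.38 to 0.85 for Frs2, from 0.52 to 0.72 for Gab1 and from 0.54 to 0.61 for Pik3ca.

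All 9 listed partners of p75 were tested, with a median log2 fold change of -0.17. Bex3, also called Ngfrap1, which binds the intracellular part of p75, was called lower, and so it was in each of the 8 fits with a library left out. It had 5086, 4140, 2312 and 1866 normalized counts in control replicates 1, 3, 4 and 5, and 1913, 1934, 1449 and 1297 in mutant replicates 2, 3, 4 and 5. Only control replicate 5 was among the mutants. Its log2 fold change was -0.93 (SE 0.32, unadjusted p = 0.0143), and -0.69 (unadjusted p = 0.0404) without control replicate 1. Traf6, an adaptor of p75 signalling, was called higher (log2 fold change 1.01, unadjusted p = 0.0196), and not without mutant replicate 4 or 5 (0.86 to 0.90). It was called at 0.65 without control replicate 1.

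Of 17 ligands of the LAR-type phosphatases, among them Slitrks, Lrfn proteins and matrix proteoglycans, 0 were called either way by limma at the main setting, while 15 had a log2 fold change below 0 (46.6% of all genes tested did) and the median was -0.32. The lowest p was that of Lrfn4, a postsynaptic adhesion molecule, at 7099 ± 576 normalized counts (SD, n = 4) in the controls and 5153 ± 784 (SD, n = 4) in the mutants. All 4 mutants of Lrfn4 were below all controls, as were the mutants of 2.17% of all genes tested. Its log2 fold change was -0.47 (SE 0.18, unadjusted p = 0.0241), short of a 1.5-fold change. Without control replicate 1, 2 of the 17 were called lower. With library weights 5 were, where 5.24% of all genes were, and with a replicate block 5 were, where 5.51% of all genes were. That block compares only replicates 3, 4 and 5.

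Of 17 cytoplasmic partners of the LAR-type phosphatases, 3 were called higher and 0 lower, with a median log2 fold change of 0.20 (0.13 without control replicate 1, with 1 called higher). Ppfibp1, a liprin-β, had 5022, 5991, 9313 and 7376 normalized counts in control replicates 1, 3, 4 and 5, and 9649, 10079, 22132 and 15637 in mutant replicates 2, 3, 4 and 5. All mutants were above all controls, as were the mutants of 2.76% of all genes tested. Its log2 fold change was 1.01 (SE 0.30, unadjusted p = 0.00635), and it was called in each of the 8 fits with a library left out. Without control replicate 1 its value was 0.87 (unadjusted p = 0.0187). The scaffold gene Caskin2 (0.89, unadjusted p = 0.0332) and the kinase gene Abl1 (0.66, unadjusted p = 0.0272) were not called without control replicates 1 or 3 or mutant replicates 4 or 5, with values of 0.67 to 0.74 and 0.49 to 0.59 in these fits. The liprin-α genes, Ppfia1 to Ppfia4, were not called.

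**Figure D5:**
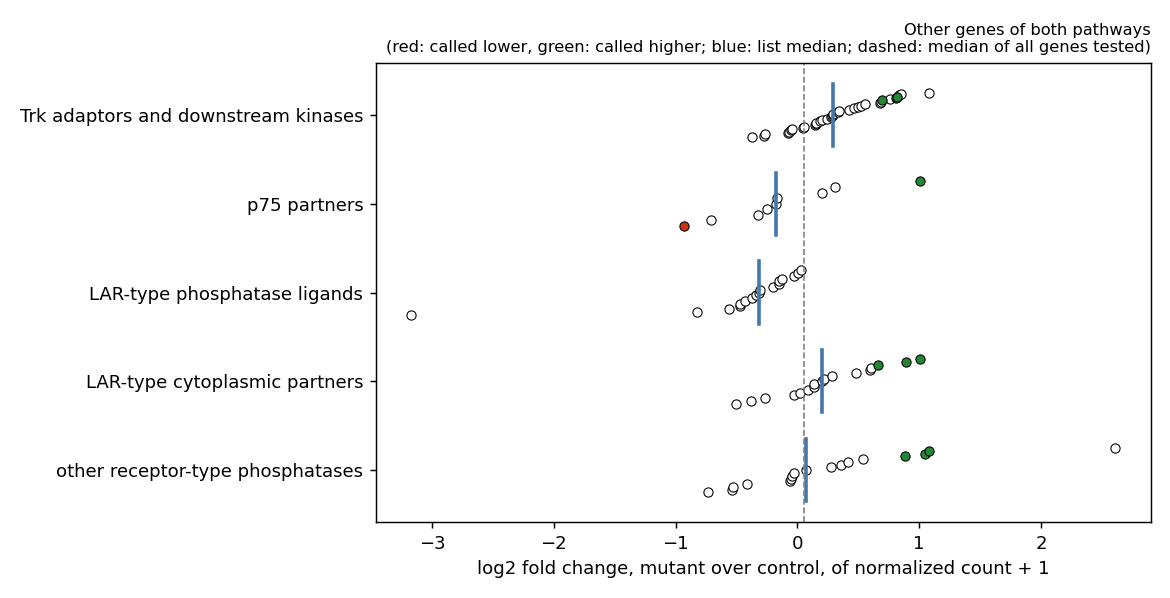
Log2 fold changes of mutants over controls for the tested genes of 5 lists, 1 point per gene (red called lower, green called higher), with the median of each list in blue and that of all genes tested (0.055) dashed. The ligand list of the LAR-type phosphatases lies mostly below 0 (15 of 17) and holds no called gene.

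Other receptor-type phosphatases were compared with the LAR-type genes. Of 18 listed, 17 were tested, 3 were called higher and 0 lower, and the median log2 fold change was 0.07. This median was -0.10 without control replicate 1, over 18 genes tested, so its direction turned on 1 library, while 3 were still called higher. Ptprb, known from endothelial cells, had 34018, 68662, 86523 and 78366 normalized counts in control replicates 1, 3, 4 and 5, and 103791, 109553, 198840 and 139544 in mutant replicates 2, 3, 4 and 5. The 4 mutants of Ptprb and those of Ptprg were above all controls. Ptprb had a log2 fold change of 1.08 (SE 0.36, unadjusted p = 0.0115) and Ptprg of 0.89 (SE 0.28, unadjusted p = 0.0097), and both were called in each of the 8 fits with a library left out. Without control replicate 1, the lowest library of both, Ptprb had 0.78 (unadjusted p = 0.0194) and Ptprg 0.62 (unadjusted p = 0.0145). Ptprc, which encodes the leukocyte antigen CD45, averaged 207 ± 106 normalized counts (SD, n = 4) in the controls and 391 ± 108 (SD, n = 4) in the mutants (log2 fold change 1.05, unadjusted p = 0.0417). It was not called without control replicate 3 or 4 or mutant replicate 3, 4 or 5, where its value ran from 0.65 to 1.11.

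Markers of other cells than interneurons were present in these pulldowns. Of 10 endothelial and mural markers 3 were called higher (Flt1, Tek and Pdgfrb, median log2 fold change of the list 0.48, and 0.32 without control replicate 1), with summed normalized counts of 186608 to 299517 in controls and 276359 to 296152 in mutants. In the fit without that library 1 was called. Of 10 oligodendrocyte markers 3 were called lower (Mog, Mag and Opalin, median -0.62), and 0 (median -0.34) without control replicate 1, which had the highest summed count, 673772. Neurod6, an excitatory neuron marker, was called lower, and 0 were called in either direction among astrocyte, oligodendrocyte precursor, microglia and fibroblast markers. Ptprb and Ptprs are also transcribed outside interneurons. The part of these cells in the phosphatase values was not tested.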

How the data were processed

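RNA bound to tagged ribosomes was sequenced from 4 control and 4 mutant synaptosome libraries, which the methods call biological replicates. The signal values used here are normalized counts that the authors deposited: reads aligned with STAR 2.4.0 to mm10, counted on the constitutive parts of genes of the Fast DB annotation, and divided by 1 DESeq2 size factor per library. Dividing each column by its smallest value above 0 gave back whole reads for 100% of values (tolerance 0.01).

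Limma 3.58.1 in R 4.3.3 (lmFit, eBayes with trend, two-sided) was applied to log2(normalized count + 1) of the genes with a mean of 10 or more in either genotype. Log2 fold changes of low genes depended on the method. That of Ntf3 was 1.70 on this scale, 1.33 by DESeq2 and 1.32 by edgeR. Ngfr had -1.13, -1.28 and -1.27. Benjamini-Hochberg adjustment ran over all 31171 genes. Pseudocounts, filters, quantile and TMM scaling, library weights, edgeR 4.0.16 and DESeq2 1.42.0 on recovered reads, a replicate block and leaving out each library were alternatives. Exact permutation tests used all 70 splits. The procedure was tested on simulated data, where it recovered 65.5% of 3-fold changes and called 4.91% of the unchanged genes. In the deposited data 7.15% of all genes tested were called either way. Intervals of reads cover counting error only. The paper reports more than 1 sequencing batch, but the labels pair no library with a batch, so within-batch values were not computed. Read counts differed least between mutant replicates 4 and 5 and between mutant replicates 2 and 3 (chi-square per degree of freedom 27.0 and 47.0). The other mutant pairs had 247.6 to 271.5. Control replicates 4 and 5 had 113.4, and the other control pairs 188 to 394.2. Whether these groupings follow the batches was not tested. Sequences and gene models came from GENCODE M21, and 1 listed symbol (Ngfrap1) was matched through RefSeq.

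Named genes were the 7 members, the called genes of each list or else the one with the lowest p, Erbb4, Lhx6 and Rpl22 as checks, and the 3 most similar genes per member. Members and lists were chosen with earlier results of these data known. Rpl22, the tagged gene, had a log2 fold change of -0.47 (unadjusted p = 0.178). Of the marker lists, the medians not given with the results were -0.18 for excitatory neurons, -0.11 for astrocytes, -0.18 for oligodendrocyte precursors, -0.44 for microglia and 0.15 for fibroblasts and meninges. Those of microglia (-0.23) and astrocytes (-0.00099) were nearer 0 without control replicate 1. Some genes of the lists of other neurotrophins and receptors and of excitatory neuron markers are not reported here, and no count of calls is given for these lists.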

Additional observations from a re-analysis of the deposited data

Results flagged for a closer look

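Ptprs in control replicate 1 had 47913 normalized counts, and the other 3 controls had 137198 to 142349. The gap to the nearest control was 0.945 of the range of the group, above Dixon's 95% critical value for 4 samples. This was 1 of 14 groups looked at, where chance gives about 0.7. Of 18120 genes with a mean of at least 100 in both genotypes, 7.48% were lower still in this library relative to the median of the other controls, on the log2 scale. The cause was not tested.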

How the results depend on the processing

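Ntrk2, Ntrk3, Ptprd and Ptprf kept their direction under all 19 alternatives, and Ntf3 and Ngfr under the 18 that could be fitted (a mean of at least 100 left both out). None of these alternatives scaled only to the reads on genes of each library, as the RPKM values do. As RPKM of coding length, Ptprd averaged 49.0 in controls and 49.2 in mutants, so its mean was not lower there. Ptprf averaged 8.89 and 8.73, and Ntrk3 18.3 and 13.2. The call of Ntrk3 was not tested on that scale. No member was called higher in any alternative, and no scaling moved the median of the 31171 genes tested by over 0.1. The size for Ntf3, 1.70, did depend on the processing: it was 0.69 with the replicate block, 0.78 with library weights, 1.11 with quantile normalization, 0.85 with a pseudocount of 10 and 2.53 with one of 0.1, and ran from 0.71 to 2.27 with a library left out. The call of Ntrk3 was lost in limma without trend (log2 fold change -0.67, unadjusted p = 0.0682) and in 4 of 8 fits with a library left out, whose values ran from -0.81 to -0.52. The number of members called lower then went from 1 to 0, and it was 0 at an adjusted p under 0.05. Ptprs turned to -0.10 with library weights, -0.18 with the replicate block and -0.15 without control replicate 1. Each of those settings discounts or leaves out that library. The value of Ptprs ran from -0.15 to 0.37 over the fits with a library left out. The cause was not tested. The replicate numbers 3, 4 and 5 occur in both genotypes. The deviations of same-numbered libraries correlated at 0.08 to 0.10, not all over 0.1, so the numbers were not read as pairs. Some libraries with different numbers also correlated above 0. Control replicates 1 and 3 with mutant replicates 2 and 3 had 0.02 to 0.10. Control replicates 4 and 5 with mutant replicates 4 and 5 had 0.08 to 0.10. All other pairs of a control with a mutant had -0.12 to -0.03. The libraries thus fell into groups that cut across genotype, which the main fit did not model. The cause of this grouping was not tested. The replicate block compares only replicates 3, 4 and 5. Control replicate 1 and mutant replicate 2 have no same-numbered library and do not enter its fold changes. With the replicate block the log2 fold change of Ntrk3 was -0.67 (unadjusted p = 0.00486), and 1 member was called lower, as without it. With that block 5 ligands of the LAR-type phosphatases were called lower, against 0. A correction for GC content was tried after seeing the data and is void, since a GC content could be given to only 63.5% of the genes tested. Ntf3 and Ngfr are limited by depth, at 0 to 140 reads per library.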
